A study of Mus musculus with 2 samples.

Results

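The genes described here are 10 members of the bone morphogenetic protein (BMP) pathway, chosen by symbol: the ligands Bmp4 and Bmp6, the secreted antagonist Grem1, the decoy receptor Bambi, the inhibitory SMADs Smad6 and Smad7, and the target genes Id1, Id2, Id3 and Id4. The files list them as Bmp4 ENSMUSG00000021835, Bmp6 ENSMUSG00000039004, Grem1 ENSMUSG00000074934, Bambi ENSMUSG00000024232, Smad6 ENSMUSG00000036867, Smad7 ENSMUSG00000025880, Id1 ENSMUSG00000042745, Id2 ENSMUSG00000020644, Id3 ENSMUSG00000007872 and Id4 ENSMUSG00000021379. All 10 were found among the 34144 genes listed for each library. Single-cell RNA was counted in stromal cells from the long bone marrow of wild-type mice labelled C57BL6, in 1 library labelled old and 1 labelled adult, with the ages given in words and neither sex nor number of mice stated in the labels. Both groups had been depleted of haematopoietic cells by magnetic separation, cleared of debris and dead cells by scatter and DAPI, and sorted before droplet capture. With 1 library per age, no difference below has a replicate check, no test was possible, and age cannot be told apart from any other difference between the libraries.

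BMP ligands are secreted dimers of the TGF-beta family that bind type I and type II serine/threonine kinase receptors, which phosphorylate SMAD1, SMAD5 and SMAD9. These enter the nucleus with SMAD4 and switch on targets, among them the Id genes, whose helix-loop-helix proteins lack a DNA-binding region and hold E proteins away from DNA. The pathway restrains itself: gremlin 1 binds ligand outside the cell, BAMBI resembles a type I receptor without a kinase, and SMAD6 and SMAD7 block the receptor or its SMADs and are themselves pathway targets. In bone marrow, BMPs are known for driving osteoblast differentiation, and endothelial cells are known as strongly responding cells.

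After filtering, the old library held 18975 cells with a median of 7736 UMIs (unique molecules counted), and the adult library held 22403 cells with a median of 7139. Cells were assigned by lists of marker genes that contain none of the 10. The CXCL12-abundant reticular (CAR)-like class, the main stromal cell of the marrow, held 13758 old and 14493 adult cells. The osteolineage-like class held 285 old and 1423 adult cells, the endothelial-like class 316 and 1354, and the pericyte or smooth muscle-like class 173 and 353. In each of these 4 classes all 10 markers of its own list were detected in both libraries, and Adipoq and Cxcl12, Bglap and Bglap2, Ptprb and Kdr, and Rgs5 and Acta2 were among the leading genes. Chondrocyte-like cells (135) were gated in the adult library and plasma cell-like cells (1194) in the old library. When all cells were clustered together without the 10 genes, the CAR-like cells of the libraries fell into nearly separate clusters: those holding a larger part of the old than of the adult class took 97.4% of old and 0.628% of adult CAR-like cells. Old CAR-like cells lay mostly in clusters 1, 2, 3, 4 and 8, and adult ones mostly in clusters 6, 11, 16, 25, 26 and 27. A comparison of CAR-like cells is therefore one of different clusters that share the class markers, and whether the libraries differ in cell state, in cell make-up or technically cannot be told apart. Endothelial-like cells lay almost wholly in 1 cluster of both libraries, as did pericyte or smooth muscle-like cells in another. The 2 libraries shared 108 cell barcodes after filtering.

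The promoters of the Id genes and of Smad6 are shown because these genes are the pathway's own transcriptional readouts. They are RefSeq sequences on GRCm38.p6, from 250 bases before to 50 bases after the start site; the counts were made on another build, GRCm39. The table holds 7 of the 10 genes, and Id1 is not among those printed. Capitals mark GGCGCC, a GC-rich element that BMP SMADs are known to bind, and GTCTAGAC, the palindromic SMAD-binding element; each reads the same on both strands, so a match counts for both, and the 2 cannot overlap.
Id2, chr12:25096043-25096342, minus strand: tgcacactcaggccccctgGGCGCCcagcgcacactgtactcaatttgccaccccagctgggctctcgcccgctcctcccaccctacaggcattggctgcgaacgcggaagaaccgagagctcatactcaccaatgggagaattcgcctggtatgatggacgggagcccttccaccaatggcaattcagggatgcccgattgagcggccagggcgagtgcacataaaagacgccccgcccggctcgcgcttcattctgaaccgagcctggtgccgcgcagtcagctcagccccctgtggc
Id3, chr4:136143572-136143871, plus strand: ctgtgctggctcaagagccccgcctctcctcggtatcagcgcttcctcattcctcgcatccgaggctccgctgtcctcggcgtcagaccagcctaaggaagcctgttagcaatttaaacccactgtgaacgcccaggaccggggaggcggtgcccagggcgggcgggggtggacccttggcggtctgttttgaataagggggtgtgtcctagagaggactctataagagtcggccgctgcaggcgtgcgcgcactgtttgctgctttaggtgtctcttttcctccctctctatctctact
Id4, chr13:48260866-48261165, plus strand: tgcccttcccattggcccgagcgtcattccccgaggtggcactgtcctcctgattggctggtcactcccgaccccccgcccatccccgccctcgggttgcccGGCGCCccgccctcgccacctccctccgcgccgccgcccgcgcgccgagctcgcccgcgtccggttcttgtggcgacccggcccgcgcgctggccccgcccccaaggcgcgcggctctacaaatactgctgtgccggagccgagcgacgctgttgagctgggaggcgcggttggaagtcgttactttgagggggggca
Smad6, chr9:64022010-64022309, minus strand: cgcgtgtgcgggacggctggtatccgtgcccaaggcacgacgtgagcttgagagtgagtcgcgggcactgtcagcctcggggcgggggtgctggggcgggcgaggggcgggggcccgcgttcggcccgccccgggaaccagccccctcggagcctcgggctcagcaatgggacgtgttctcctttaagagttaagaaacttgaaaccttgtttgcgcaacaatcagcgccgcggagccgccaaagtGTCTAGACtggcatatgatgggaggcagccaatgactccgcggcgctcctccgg

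Id2 and Id4 each hold 1 GGCGCC in this window, as does Grem1, an element present in 11.9% of the 32851 promoters of the table. Smad6 holds 1 GTCTAGAC, present in 0.213% of them, beginning 4 bases before the start site. Id3 shows neither run of letters here, which says only that they are not in these 300 bases. The E-box CANNTG, the element of the E proteins that Id proteins hold back, reads the same on both strands, can overlap either of the other motifs by a letter or more, and is found in 72.3% of the promoters. It occurs in the windows of Id2 and Smad6, in both without overlap with the other element, and is not in those of Id3 and Id4.

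**Figure D1:**
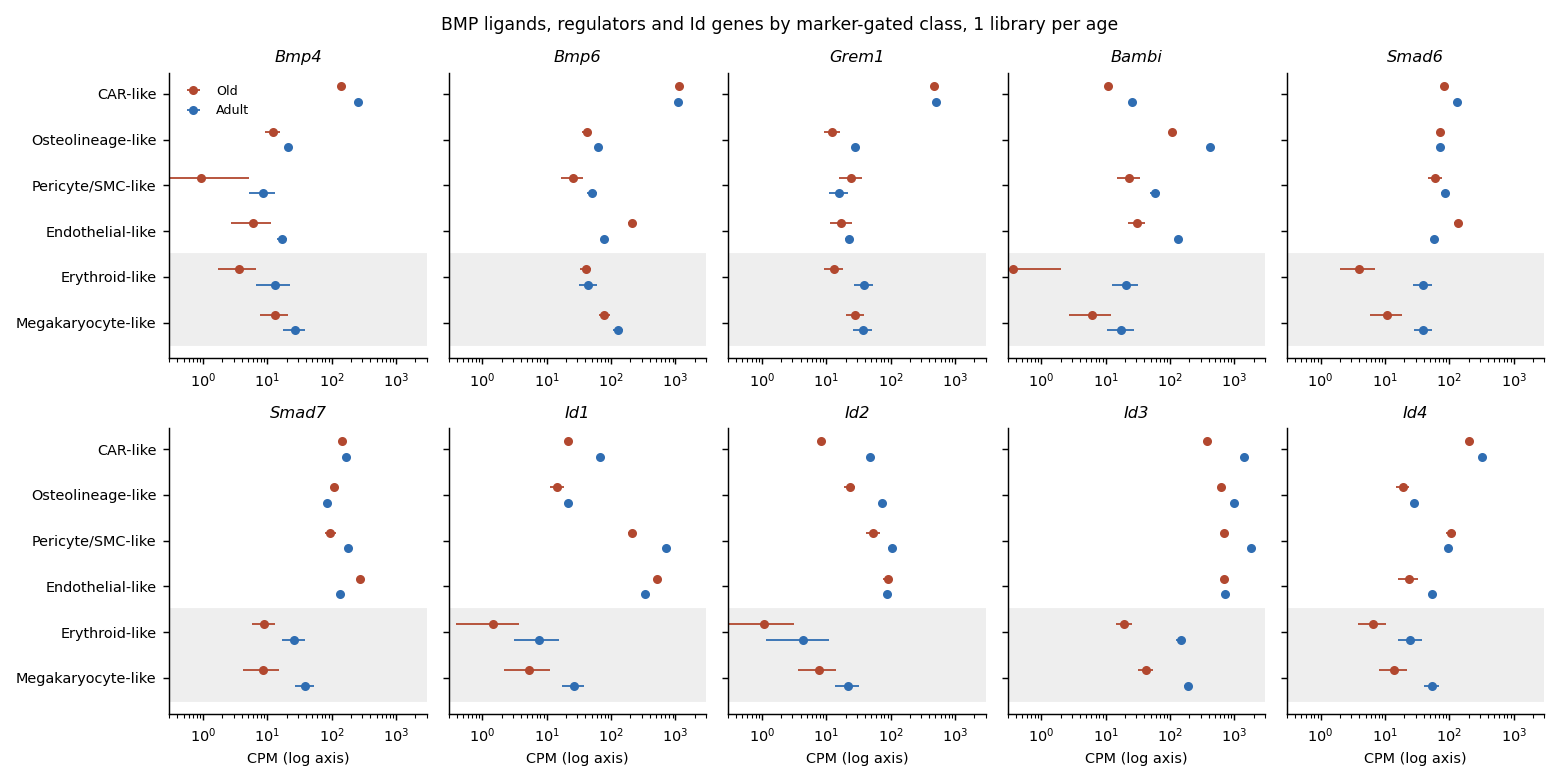
Level of each of the 10 genes (CPM, log axis) in 6 marker-gated classes, old above adult in each row, with 95% exact Poisson intervals that cover counting error only; whiskers that run below the axis end at its edge, and grey marks the 2 blood classes. Bmp6 sat highest in CAR-like cells of both libraries, and old CAR-like cells lay left of adult ones for Id1, Id2 and Id3.

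The ligands were a feature of the CAR-like class in both libraries. Levels are given as CPM, the UMIs of a gene per 1000000 UMIs of its class and library, and Bmp6, best known from iron regulation and bone, had 1139 CPM in old and 1099 CPM in adult CAR-like cells, and its log2 ratio of old over adult was 0.05 (95% counting interval 0.04 to 0.06). A Bmp6 UMI was seen in 90.7% of old and 95.2% of adult CAR-like cells, and in 76.3% and 79.6% after each cell had been thinned to 2000 UMIs. Bmp6 was thus held at nearly the same level in both libraries in the class that contained most of its transcripts.

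Bmp4, the osteogenic ligand, was lower in old CAR-like cells. It had 139.9 CPM in old CAR-like cells and 252 CPM in adult ones, a log2 ratio of -0.85 (-0.88 to -0.82), which is short of 2-fold. A Bmp4 UMI was seen in 43.9% of old and 61.8% of adult cells, or 19.6% and 32.7% after thinning. Over clusters with 100 or more CAR-like cells of a library, Bmp4 ran from 67.9 to 207 CPM in 6 clusters of old cells and from 145 to 323 CPM in 10 clusters of adult cells. These ranges overlapped.

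Erythroid-like cells were used to gauge free RNA, because red cell precursors are not expected to make stromal ligands and their depth was near that of CAR-like cells: medians of 8945 UMIs in old and 6976 in adult erythroid-like cells, against 7559 and 7350 in CAR-like cells. Bmp6 was seen in 17.1% of old and 14.5% of adult erythroid-like cells, or 4.65% and 6.31% after thinning. Bmp4 was seen in 3.57% of old and 8.87% of adult erythroid-like cells, or 0.775% and 3.604% after thinning. Both ligands in CAR-like cells were far above these shares.

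Of the other classes, the adult cells that passed both the CAR and osteolineage gates carried clear Bmp4, at 135 CPM with a UMI in 63.4% of cells, or 24.7% after thinning. In the remaining stromal and endothelial classes Bmp4 stayed closer to background. Endothelial-like cells carried a Bmp4 UMI in 2.53% of old and 8.27% of adult cells, below the erythroid-like shares, and in 1.09% and 3.56% after thinning, close to them, so these counts are read as background. Pericyte or smooth muscle-like cells had 1 Bmp4 UMI in the old and 20 in the adult library, also within background. Osteolineage-like cells had 12.1 CPM in old and 21.0 CPM in adult cells, with thinned shares of 1.77% and 4.94%.

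Bmp6 was ranked over the stromal and endothelial classes. In the adult library the order below CAR-like cells was the class that passed both the CAR and osteolineage gates at 480 CPM, chondrocyte-like cells at 157 CPM, endothelial-like cells at 78.0 CPM, osteolineage-like cells at 62.2 CPM and pericyte or smooth muscle-like cells at 50.7 CPM. The counting intervals of the last pair of neighbours overlapped. In the old library endothelial-like cells came next after CAR-like cells at 208 CPM, ahead of osteolineage-like cells at 41.5 CPM and pericyte or smooth muscle-like cells at 25.2 CPM. Erythroid-like cells had 40.1 CPM in old and 44.4 CPM in adult, so the lowest ranks are not separated from background. Megakaryocyte or platelet-like cells, a blood class with fewer UMIs per cell, carried 78.5 CPM in old and 127 CPM in adult, with thinned shares of 12.2% and 19.0%. Thinned Bmp6 shares in endothelial-like cells were 23.3% in old and 10.4% in adult, so the old share lay above both blood classes, and the adult share lay above the erythroid-like one and below the megakaryocyte or platelet-like one.

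Grem1, the gremlin 1 antagonist, was likewise concentrated in CAR-like cells, with 478 CPM in old and 516 CPM in adult cells and a log2 ratio of -0.11 (-0.13 to -0.09). It was seen in 76.8% of old and 79.1% of adult CAR-like cells, or 49.5% and 51.9% after thinning, against 10.4% and 12.9% of old and adult erythroid-like cells, or 3.88% and 3.604% after thinning. Grem1 in endothelial-like cells, at 6.33% of old and 11.2% of adult cells, did not exceed those shares, and after thinning stood at 3.64% and 4.32%, close to them. Like Bmp6, the antagonist was highest in CAR-like cells and within 2-fold between the libraries there.

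The Id genes in CAR-like cells were lower in the old library, and 3 of the 4 by more than 2-fold. Id3 had 382 CPM in old CAR-like cells and 1422 CPM in adult ones, a log2 ratio of -1.90 (-1.91 to -1.88). Id1 had 21.1 CPM in old and 68.1 CPM in adult cells, a log2 ratio of -1.69 (-1.75 to -1.62). Id2 had 8.19 CPM in old and 48.0 CPM in adult cells, a log2 ratio of -2.55 (-2.65 to -2.45), the lowest ratio of the 10. Id4, which had 201 CPM in old and 321 CPM in adult cells, differed less, with a log2 ratio of -0.67 (-0.69 to -0.65).

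The shares of positive cells were lower in old for all 4 Id genes. Id3 was seen in 63.7% of old and 91.6% of adult CAR-like cells, or 39.3% and 78.3% after thinning. Id1 was seen in 9.96% and 24.2%, or 3.41% and 9.57% after thinning, in old and adult cells. Id2 was seen in 4.53% of old and 20.8% of adult cells, or 1.47% and 7.55% after thinning. Id4 was seen in 60.6% of old and 73.4% of adult cells, or 28.9% and 41.8% after thinning.

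Because old and adult CAR-like cells sat in different clusters, the Id levels were also set out by cluster. Id2 ran from 3.21 to 18.04 CPM over the 6 clusters of old cells and from 30.4 to 81.7 CPM over the 10 of adult cells, with no overlap. Id3 ran from 122 to 608 CPM in old and from 520.5 to 1944 CPM in adult clusters, and Id1 from 8.32 to 38.0 CPM in old and from 27.9 to 107 CPM in adult clusters. The Id1 and Id3 ranges overlapped at their ends, and Id4, at 154 to 235 CPM in old and 176 to 395 CPM in adult clusters, overlapped more. Cluster 7 held more than 100 CAR-like cells of each library, 126 old and 198 adult, and there Id3 had 482 CPM in old and 1319 CPM in adult cells, Id1 16.3 and 49.3 CPM, and Id2 18.04 and 37.4 CPM. Bmp4 had 155 and 236 CPM in that cluster.

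In the blood classes Id3 was also lower in old. Id3 stood at 19.5 CPM in old and 146 CPM in adult erythroid-like cells, and at 42.3 CPM in old and 191 CPM in adult megakaryocyte or platelet-like cells. An Id3 UMI was seen in 8.93% of old and 45.2% of adult erythroid-like cells, or 2.71% and 23.4% after thinning. Free RNA was also subtracted, as the lower per-cell level of erythroid-like and megakaryocyte or platelet-like cells for each gene and library. The latter were shallower, at medians of 1692 UMIs in old and 1569 in adult cells. With this subtraction the Id3 log2 ratio in CAR-like cells was -1.92 and the Id2 ratio -2.67, so both stayed past 2-fold. Id1 and Id2 were seen in 0.714% and 1.07% of old erythroid-like cells and in 4.84% and 3.23% of adult ones, below their CAR-like shares in each library.

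Of the pathway's brakes, Smad6 was lower in old CAR-like cells, at 83.2 CPM against 129.5 CPM in adult ones, a log2 ratio of -0.64 (-0.68 to -0.60), and Smad7 was nearer to even, at 142 CPM in old and 166 CPM in adult cells, a log2 ratio of -0.22 (-0.25 to -0.19). Neither reached 2-fold. Smad6 was seen in 36.1% of old and 45.3% of adult CAR-like cells, or 13.3% and 19.1% after thinning, and Smad7 in 54.8% and 57.7%, or 23.1% and 25.9% after thinning. Bambi had 10.96 CPM in old and 25.6 CPM in adult CAR-like cells, a log2 ratio of -1.22 (-1.32 to -1.13). The adult value is close to background. After thinning Bambi was seen in 1.91% of old and 4.74% of adult CAR-like cells, against 0 of 258 old erythroid-like cells, which allows a share of up to 1.16%, and 5.41% of adult ones. Before thinning the shares were 7.82% of old and 16.1% of adult CAR-like cells, and 0.357% and 9.68% of erythroid-like cells. The thinned adult share in CAR-like cells did not exceed the erythroid-like one. With free RNA subtracted as above, the Bambi ratio was -0.96, no longer 2-fold. For Bambi the lower level was the erythroid-like one in old but the megakaryocyte or platelet-like one in adult cells. Erythroid-like cells had 0.361 CPM of Bambi in old and 20.6 CPM in adult. Subtracting the erythroid-like level in both libraries was not tried, so how far the Bambi ratio rests on background is not settled.

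In CAR-like cells 4 of the 10 genes (Bambi, Id1, Id2 and Id3) were therefore lower by 2-fold or more in old cells, and none was 2-fold higher. A gene was counted in such a comparison where it had at least 50 UMIs and 20 CPM in the library where it was higher. Of the 7353 genes counted in CAR-like cells, 1.96% were 2-fold or more lower and 2.69% 2-fold or more higher in old. The median log2 ratio was -0.76 over the 10 genes and 0.02 over all counted genes, and 9 of the 10 were below 0, against 47.7% of all counted genes. The count of 4 is thus above the 1.96% seen over all genes, while Bambi's part in it is near background.

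**Figure D2:**
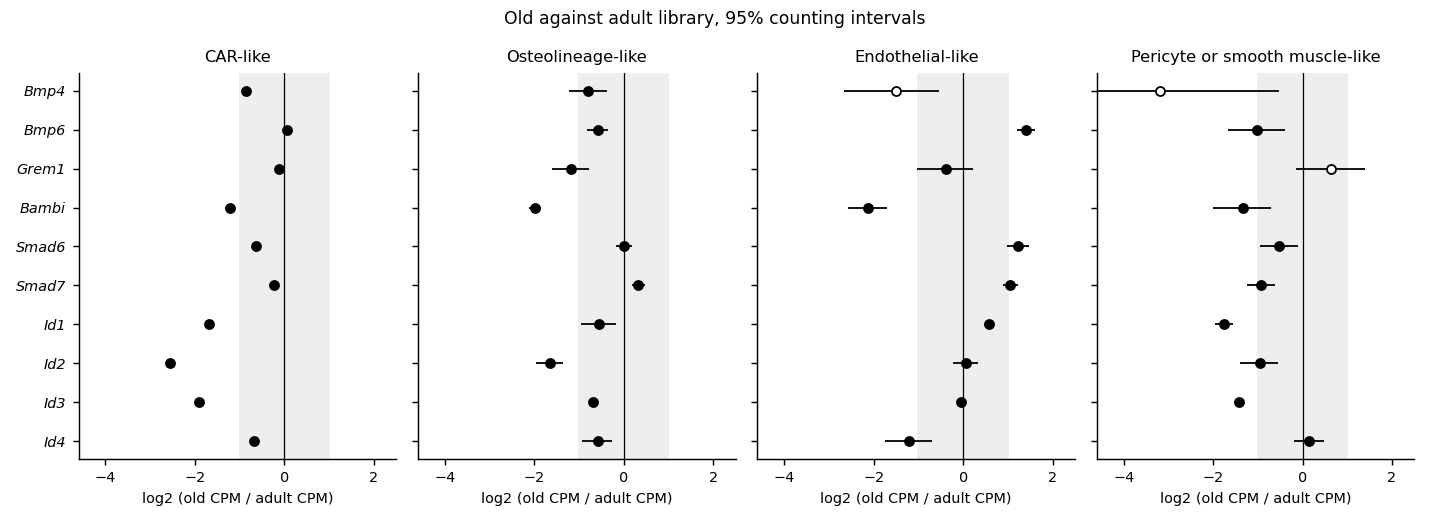
Log2 ratio of old over adult CPM for the 10 genes in 4 classes with 95% counting intervals; open circles had too few UMIs to be counted, the grey band spans less than 2-fold, and 1 whisker runs past the left edge. In CAR-like cells Id1, Id2 and Id3 lay at -1.69, -2.55 and -1.90, and in endothelial-like cells Bmp6, Smad6 and Smad7 lay at 1.41, 1.23 and 1.05.

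Among the other pathway genes with enough UMIs to be counted in CAR-like cells, none was 2-fold apart. None of the 7 BMP receptors and co-receptors counted was 2-fold apart in either direction, and Bmpr2, a type II receptor, had 282 CPM in old and 259 CPM in adult cells while Bmpr1a, a type I receptor, had 142 and 125 CPM. None of the 4 other Bmp and Gdf genes counted (Bmp1, Bmp2, Bmp5 and Gdf10) was 2-fold apart. Bmp5, the most abundant of them, had 272 CPM in old and 332 CPM in adult cells. The same held for the 8 other extracellular inhibitors counted, where Fst, which encodes follistatin, had a log2 ratio of -0.73 and Chrdl1, a chordin-like antagonist, 0.11. It also held for the 13 SMAD carriers and regulators, with Smad4 at 0.11 and Smurf2 at -0.04.

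Of 5 other genes counted that are known to respond to BMP, none was 2-fold apart. Dlx5, an osteoblast homeobox gene, had a log2 ratio of -0.84, Hes1 -0.56, Tmem100 -0.17, Runx2 0.24 and Ptger4 0.60. The 3 E proteins that Id proteins bind were slightly higher in old, with Tcf4 at 0.40 (680 CPM in old and 515 CPM in adult CAR-like cells), Tcf12 at 0.11 and Tcf3 at 0.11. Among genes of these BMP lists too low to be counted, 3 had more than 100 UMIs in each library and were past 2-fold, all higher in old: Smoc2, a secreted modulator, at 15.8 CPM in old and 3.62 CPM in adult cells (log2 2.12), Tbx3 at 5.18 and 1.86 CPM (1.48) and Bmp3 at 4.14 and 1.75 CPM (1.24). Asking for that many UMIs in each library leaves out genes that are low in old. Among these were Gdf5, with 16 old and 115 adult UMIs (log2 -2.80), and Scube2, with 48 and 108 (-1.13). All of these genes were named after their values were seen.

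Immediate early genes, which are induced within minutes by growth signals and by tissue handling, moved with the Id genes. Of 26 listed, 25 are in the files and 22 were counted in CAR-like cells; all 22 had ratios below 0, 6 of them 2-fold or more (Fos, Ier5, Atf3, Nr4a1, Nr4a3 and Btg2), and the whole list summed to 7448 CPM in old and 11853 CPM in adult cells. CAR-like cells of both libraries were therefore split at limits common to both libraries into 4 bins of that level. Id3 ran from 310.2 CPM in the lowest to 526 CPM in the highest bin in old cells, and from 1149 to 1701 CPM in adult cells. Id2 ran from 4.77 to 18.1 CPM across the bins in old cells and from 27.6 to 69.2 CPM in adult cells. Within every bin the old library was below the adult one for each of the 4 Id genes, and in cells restricted to a shared range of immediate early gene level the Id3 ratio was -1.82.

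Id4 and Bmp4 went the other way across the bins. Id4 ran from 205 CPM in the lowest to 188 CPM in the highest bin in old cells, and from 369 to 281 CPM in adult cells. Bmp4 ran from 158 to 115 CPM in old and from 269.9 to 242 CPM in adult cells. Smad6 was likewise lower in the highest bin, running from 95.1 to 64.4 CPM in old and from 185 to 93.1 CPM in adult cells, while Grem1 ran from 396 to 624 CPM in old and from 377 to 664 CPM in adult cells. Between the lowest and highest bins, Id1, Id2, Id3 and Grem1 on one side, and Id4, Bmp4 and Smad6 on the other, therefore differed in their relation to immediate early genes within each library.

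**Figure D3:**
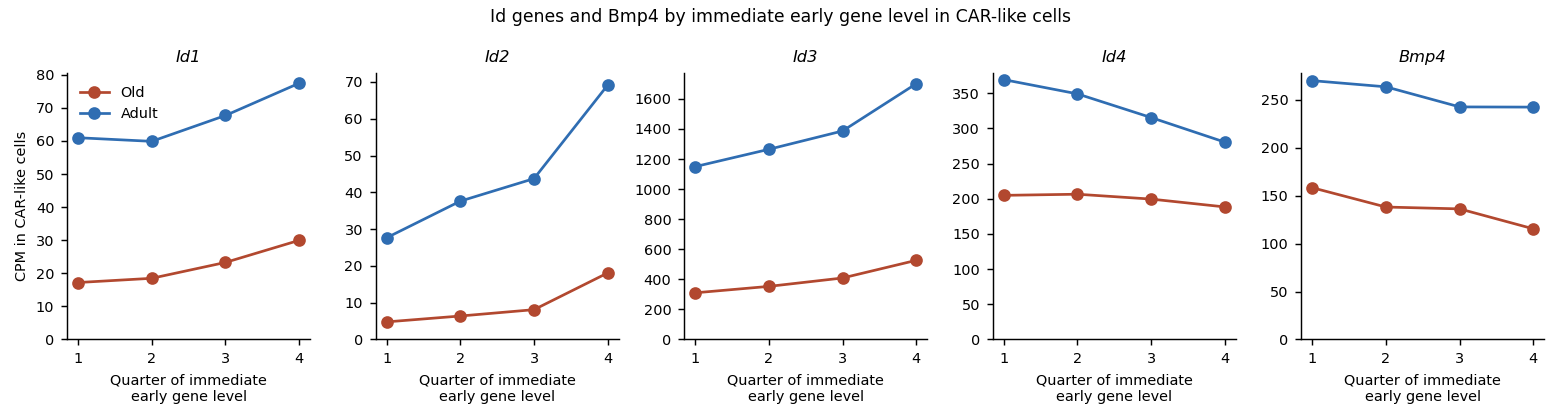
CPM of the 4 Id genes and Bmp4 in CAR-like cells by bin of the summed immediate early gene level (1 the lowest, 4 the highest), with limits common to both libraries; each point sums the cells of 1 library and bin. The old line lay below the adult line in all 4 bins of every panel, for example at 310.2 to 526 CPM against 1149 to 1701 CPM for Id3.

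Osteolineage markers were also unequal between the CAR-like cells of the libraries, summing to 3982 CPM in old and 8039 CPM in adult cells, with all 10 markers detected in both and Ibsp the most abundant. Split in the same way by that marker score, old CAR-like cells had 364 to 444 CPM of Id3 over the 4 bins and adult ones 1345 to 1788 CPM. Id2 lay between 6.25 and 12.03 CPM in old and between 44.5 and 56.4 CPM in adult bins. The Id genes were thus lower in old at every level of osteolineage marking, while Bmp4, at 127 to 154 CPM in old and 219 to 295 CPM in adult bins, was lower as well.

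Setting ligand against target, the summed Bmp4 and Bmp6 level of CAR-like cells was 1278 CPM in old and 1351 CPM in adult cells, while the summed Id level was 613 and 1859 CPM. The class richest in Bmp4 and Bmp6 was not the richest in target. Pericyte or smooth muscle-like cells had 26.1 CPM of Bmp4 and Bmp6 in old and 59.2 CPM in adult cells, and 1054 and 2750 CPM of Id genes. Endothelial-like cells had 214 CPM of Bmp4 and Bmp6 in old and 95.01 CPM in adult cells, and 1326 and 1201 CPM of Id genes. Old plasma cell-like cells, at 64.4 CPM of Bmp4 and Bmp6, had 26.1 CPM of Id genes. Other BMP ligands are not in this sum, so it does not give the whole ligand level of a class. Bmp5 had 331 CPM in old and 245 CPM in adult pericyte or smooth muscle-like cells, against 272 and 332 CPM in CAR-like cells.

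**Figure D4:**
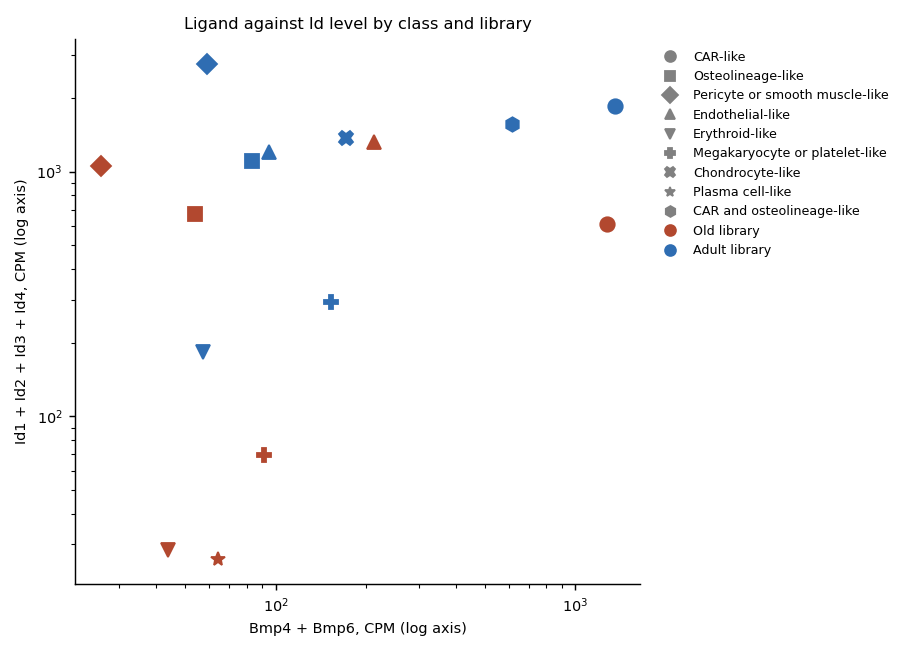
Summed Bmp4 and Bmp6 against summed Id1 to Id4 (CPM, both log axes) in each class of at least 100 cells; symbols give the class and colour the library. CAR-like cells sat far right in both libraries at 1278 CPM in old and 1351 CPM in adult, with Id levels of 613 and 1859 CPM, while pericyte or smooth muscle-like cells sat highest in the adult library at 2750 CPM.

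Within CAR-like cells, those with a Bmp4 UMI were compared with those without one at matched depth, over 10 bins of total UMIs. In the old library Bmp4-positive cells had 724 CPM of summed Id genes and negative ones 518 CPM, a log2 ratio of 0.48. In the adult library the values were 1964 and 1685 CPM, a log2 ratio of 0.22. Id4 differed most with Bmp4, by 0.58 in old and 0.52 in adult cells, and Id2 had -0.13 and -0.15. Cells carrying the ligand thus had more Id3 and Id4 transcripts in both libraries, by less than 2-fold. They were matched for depth but not for cluster, and Bmp4 and the Id genes also differed between clusters in each library. A difference between clusters was therefore not separated from one between cells.

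Bmp6 gave a mixed picture. Summed Id genes had 611 CPM in Bmp6-positive and 596 CPM in negative cells of the old library, a log2 ratio of 0.04, and 1802 and 2327 CPM in the adult library, a log2 ratio of -0.37. The sum hid opposite members: Id4 was higher in Bmp6-positive cells, with a log2 ratio of 1.06 in old and 0.49 in adult cells, while Id1 was lower, at -0.86 and -1.01, and Id2 at -0.99 and -0.62. In all, 1276 old and 701 adult CAR-like cells lacked a Bmp6 UMI. Their median depth was 4003.5 UMIs in old and 3486 in adult cells, against 7853 and 7497.5 in positive cells. Smad6 was lower in Bmp6-positive cells, by a log2 ratio of -0.36 in old and -0.64 in adult cells, and in Grem1-positive cells, by -0.54 and -0.43. With Bmp4 it went opposite ways, at 0.28 in old and -0.28 in adult cells. The Bmp6 and Grem1 comparisons were likewise not matched for cluster. Bmp6 was highest in cluster 3 of old cells (1783 CPM) and cluster 16 of adult cells (1699 CPM). Id1 (8.32 and 27.9 CPM), Id2 and Id3 (122 and 520 CPM) were lowest of their library there, and Id4 was not. A difference between clusters was not separated from one between cells here either.

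**Figure D5:**
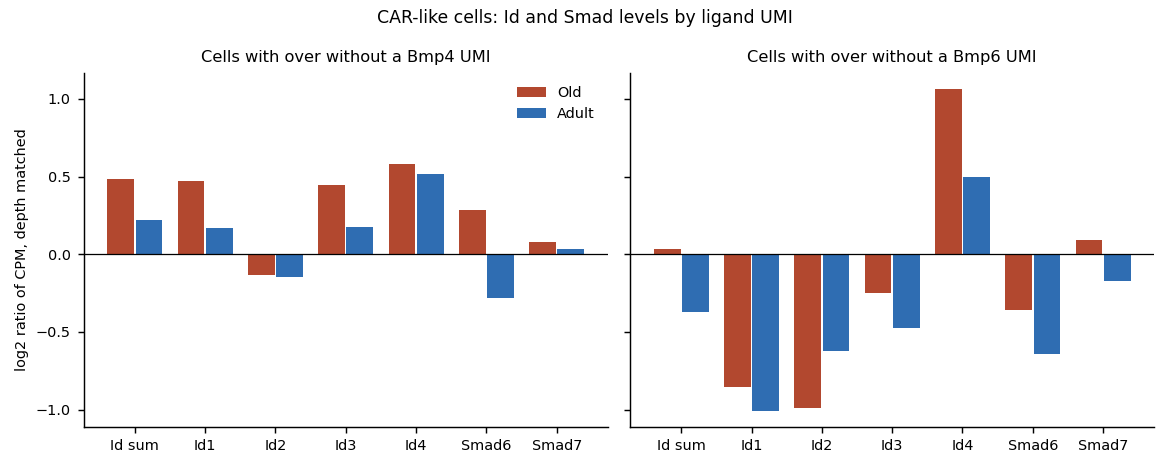
Log2 ratio of CPM in CAR-like cells with over without a ligand UMI, for the Id sum, each Id gene, Smad6 and Smad7. Cells were matched for depth but not for cluster. Left bars are old, right bars adult. With Bmp4 the Id sum stood at 0.48 in old and 0.22 in adult, and with Bmp6 Id4 stood at 1.06 and 0.49 while Id1 stood at -0.86 and -1.01.

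Osteolineage-like cells were the main site of Bambi. It had 108 CPM in old and 427 CPM in adult osteolineage-like cells, a log2 ratio of -1.98 (-2.12 to -1.85), and was seen in 46.7% of old and 86.9% of adult cells, or 13.8% and 48.8% after thinning. The adult class that passed both the CAR and osteolineage gates had 230.3 CPM, between the osteolineage-like and CAR-like levels. Id2 had 23.1 CPM in old and 73.0 CPM in adult cells, a log2 ratio of -1.66 (-1.97 to -1.37). Grem1 had 12.4 CPM in old and 28.0 CPM in adult cells, a log2 ratio of -1.18. Its thinned share in old cells, 3.19%, did not exceed the 3.88% of old erythroid-like cells. Erythroid-like cells had more Grem1 by CPM in both libraries, at 13.4 CPM in old and 39.0 CPM in adult.

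These 3 of 10 genes were 2-fold or more lower in old osteolineage-like cells and none was 2-fold higher. Of 6565 counted genes, 3.32% were 2-fold lower and 10.6% 2-fold higher. Grem1's part in the count of 3 is within background by CPM. Id3, the most abundant of the 10 in this class, had 616 CPM in old and 987 CPM in adult cells, a log2 ratio of -0.68 (-0.74 to -0.62). Id1 and Id4 had ratios of -0.55 and -0.58, Bmp4 -0.79 and Bmp6 -0.58. By CPM Bmp6 was below the megakaryocyte or platelet-like levels in both libraries, and in old cells (41.5) near the erythroid-like level (40.1). In adult cells Bmp4, Id1 and Id4 (21.0, 21.1 and 28.3 CPM) were below the megakaryocyte or platelet-like levels (26.5, 26.5 and 53.1 CPM) but above the erythroid-like ones. The 4 ratios are thus close to background on at least 1 side. They also moved with how cells were chosen and weighted. Id1 ran from -2.09 with clusters in place of gates to 0.14 with a stricter gate, and Bmp6 from -1.33 in cells with a CAR marker score below 1 to 0.09 in the shared range of immediate early genes. Id4 reached -1.33 with each cell weighted alike and Bmp4 -1.21 with clusters. Smad6 was level at 72.8 CPM in old and 72.6 CPM in adult cells, and Smad7 stood at 107 and 85.6 CPM. The median was -0.63 over the 10 genes and 0.22 over all counted genes. With cells taken from clusters in place of gates the Grem1 ratio was -0.83, and with thinned cells the Id2 ratio was -0.76, both under 2-fold.

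The osteolineage-like classes of the libraries were not alike. By cluster, 206 of the 285 old cells lay in cluster 5, which held 26 of the 1423 adult cells, while cluster 18 held 71 old and 1030 adult cells. Their own 10 markers summed to 71937 CPM in old and 129824 CPM in adult cells, their median depths were 12239 and 20280 UMIs, and immediate early genes summed to 5924.5 CPM in old and 10139 CPM in adult cells. Chondrocyte markers summed to 2664 CPM in old and 1171 CPM in adult osteolineage-like cells, nearly all from Col2a1, with Acan and Ucma at 0 in old. Their part in the differences was not tested. Other pathway genes were higher in old osteolineage-like cells: Bmp8a had 105 CPM in old and 21.6 CPM in adult cells, Bmp3 272 and 125 CPM, and Bmper, a secreted modulator of BMPs, 91.4 and 8.92 CPM. Htra1 (150 CPM in old and 64.2 CPM in adult) and Runx2 (3276 and 1166 CPM) were also 2-fold higher, while Chrdl1 (19.1 and 42.0 CPM) and Smoc2 (37.8 and 86.1 CPM) were 2-fold lower.

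In endothelial-like cells both inhibitory SMADs were higher in old, where in CAR-like and pericyte or smooth muscle-like cells both had ratios below 0. In osteolineage-like cells Smad6 was level (log2 0.004) and Smad7 was also higher in old, at 0.32 (0.18 to 0.47). The difference between classes was not tested. Smad6 had 136 CPM in old and 58.0 CPM in adult endothelial-like cells, a log2 ratio of 1.23 (0.98 to 1.47), and Smad7 had 277 and 133 CPM, a log2 ratio of 1.05 (0.88 to 1.22). Smad6 was seen in 36.4% of old and 24.2% of adult cells, or 20.4% and 10.7% after thinning, against 3.21% and 10.5% of erythroid-like cells, or 0 of 258 cells, which allows up to 1.16%, and 1.80% after thinning. Smad7 was seen in 56.3% of old and 40.1% of adult cells, or 36.7% and 21.3% after thinning, against 6.79% and 7.26% of erythroid-like cells, or 1.16% and 2.70% after thinning. Both inhibitory SMADs were thus above the erythroid-like shares in endothelial-like cells of each library. By CPM the adult Smad6 level of 58.0 was nearer to background, at 39.0 in erythroid-like and 39.3 in megakaryocyte or platelet-like cells. In old those classes had 3.98 and 10.8 CPM of Smad6. The Smad6 ratio therefore rests on an adult level not far above the blood classes.

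Bmp6 was higher as well, at 208 CPM in old and 78.0 CPM in adult endothelial-like cells, a log2 ratio of 1.41 (1.21 to 1.61). Bambi was lower, at 30.6 CPM in old and 133 CPM in adult cells, a log2 ratio of -2.12 (-2.58 to -1.70). Osteolineage markers moved with it, all 10 being detected in endothelial-like cells at a summed 670.5 CPM in old and 1585 CPM in adult, and their part was not tested. Id4 was lower as well, at 23.3 CPM in old and 53.7 CPM in adult cells, with -1.21. Id4 stood at 13.9 CPM in old and 53.1 CPM in adult megakaryocyte or platelet-like cells, and at 6.51 and 24.9 CPM in erythroid-like cells. The adult endothelial-like level of Id4 was thus close to that of a blood class. Id1 had 513 CPM in old and 341 CPM in adult cells (log2 0.59), Id3 699 and 720 CPM (-0.04), and Id2 90.5 and 87.0 CPM (0.06). Of the 9 genes counted, Bmp6, Smad6 and Smad7 were therefore higher by 2-fold or more and Bambi and Id4 lower by as much, where 5.14% of 6846 counted genes were 2-fold higher and 5.48% 2-fold lower. Id4's part in that count rests on an adult level near that of megakaryocyte or platelet-like cells. The median was 0.06 over the 9 genes and -0.09 over all counted genes.

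The make-up of the endothelial-like class differed between the libraries. By markers, 237 of 316 old cells were arterial-like and 27 sinusoidal-like, against 370 of 1354 adult cells arterial-like and 637 sinusoidal-like. Adult sinusoidal-like cells had less Id1, at 155 CPM, and less Smad7, at 76.4 CPM, than adult arterial-like cells, at 709.5 CPM and 235 CPM. Within arterial-like cells Smad6 kept its ratio, with 147 CPM in old and 62.8 CPM in adult cells (log2 1.23), and Bmp6 had 241 and 110.1 CPM (1.13). Smad7 did not, at 316 CPM in old and 235 CPM in adult arterial-like cells (0.43), and Id1 turned to -0.18, at 626 and 709.5 CPM in old and adult cells. Bambi stayed lower, at 28.7 CPM in old and 111 CPM in adult arterial-like cells, as did Id4, at 17.1 and 34.9 CPM. Id3 had 787 CPM in old and 1003 CPM in adult arterial-like cells, and Id2 97.0 and 77.2 CPM.

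CAR markers moved with Bmp6 in this class: all 10 were detected, summing to 3410 CPM in old and 1910 CPM in adult endothelial-like cells, with Cxcl12 the most abundant at 1341 and 635 CPM. In the cells whose CAR marker score was below 1 the Bmp6 ratio was larger, at 2.10, the Smad6 ratio was 1.12 and the Smad7 ratio was 0.87. Immediate early genes summed to 7187 CPM in old and 7296 CPM in adult cells of this class, but their members were not even. Of 22 counted, 17 had ratios below 0 and 5 above, with a median of -0.26. Klf2 (1097 CPM in old and 571 CPM in adult) and Klf4 (696 and 310 CPM) were among those higher in old. Within arterial-like cells 18 of 23 counted were below 0 and 5 above, 4 were 2-fold or more lower, and the median was -0.60. Their part was not tested. When cells were taken from clusters in place of gates, with 400 old and 1783 adult endothelial-like cells, the Bmp6 ratio was 0.21, Smad6 0.74 and Smad7 0.82, all under 2-fold. Other pathway genes 2-fold or more higher in old endothelial-like cells were Acvrl1, the endothelial type I receptor ALK1, at 131 CPM in old and 65.4 CPM in adult cells, Bmp2 at 59.2 and 20.9 CPM, Msx1 at 37.9 and 9.16 CPM, and Tbx3 at 66.5 and 18.4 CPM. Within arterial-like cells Msx1 kept a 2-fold difference (log2 1.08), while Bmp2 (0.99), Tbx3 (0.87) and Acvrl1 (0.48, at 158 CPM in old and 113 CPM in adult cells) did not. Pmepa1, which dampens SMAD signals, was 2-fold lower at 88.5 CPM in old and 208 CPM in adult cells, as was Bmp8a at 8.65 and 24.4 CPM, and within arterial-like cells the Pmepa1 ratio was -1.22.

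Pericyte or smooth muscle-like cells carried the most Id3 of any class in the adult library. Id3 had 686 CPM in old and 1848 CPM in adult cells, a log2 ratio of -1.43 (-1.54 to -1.32), and was seen in 82.1% and 94.6% of cells, or 61.1% and 87.1% after thinning. Id1 had 208 CPM in old and 701 CPM in adult cells, a log2 ratio of -1.75 (-1.96 to -1.55), and was seen in 45.1% and 76.2%, or 26.1% and 56.0% after thinning. Id4 did not follow, at 106 CPM in old and 96.4 CPM in adult cells (log2 0.14, interval -0.20 to 0.47). Id2 stood at 54.1 CPM in old and 105 CPM in adult cells (-0.96), just inside 2-fold. Grem1 had 24.2 CPM in old and 15.6 CPM in adult cells, from 26 and 37 UMIs, too few to be counted, with shares of 10.98% and 7.37% against 10.4% and 12.9% of erythroid-like cells.

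Bambi had 23.3 CPM in old and 58.4 CPM in adult pericyte or smooth muscle-like cells, a log2 ratio of -1.32 (-2.00 to -0.70), where the 10 osteolineage markers, all detected, summed to 731 CPM in old and 1665 CPM in adult cells and their part was not tested. Bmp6 had a ratio of -1.01 from 27 old and 120 adult UMIs, but its shares of 13.9% and 13.6% did not exceed the erythroid-like ones, its thinned shares of 5.73% and 7.49% were close to them, and its ratio was 0.057 when each cell was weighted alike and 0.41 in cells with a CAR marker score below 1, so it is read as background. Of 8 genes counted, Bmp6, Bambi, Id1 and Id3 were 2-fold or more lower and none was 2-fold higher, where 5.48% of 5953 counted genes were 2-fold lower and 4.33% 2-fold higher. Smad6 had a ratio of -0.53 and Smad7 of -0.92, and the median was -0.99 over the 8 genes and -0.08 over all counted genes.

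Immediate early genes were lower here too, summing to 9532 CPM in old and 18323.5 CPM in adult pericyte or smooth muscle-like cells, with 12 of 24 counted 2-fold or more lower. In the shared range of that level, which kept 51 old and 90 adult cells, Id1 had a ratio of -1.09 and Id3 of -0.80, no longer 2-fold. In the list of pathway inhibitors Fst was 2-fold lower, at 48.5 CPM in old and 143 CPM in adult cells, while Smurf1, a ubiquitin ligase that removes BMP SMADs, was 2-fold higher at 88.5 and 39.3 CPM. Dlx5 (40.1 CPM in old and 85.0 CPM in adult) and Gdf5 (9.32 and 23.3 CPM) were 2-fold lower.

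Chondrocyte-like cells, gated in the adult library alone and deep at a median of 34702 UMIs, had 356 CPM of Id2, above every other class described. They had 483 CPM of Id1 and 504 CPM of Id3, seen in 78.5% and 83.0% of cells, or 44.4% and 51.9% after thinning. Id4, at 26.5 CPM, and Smad6, at 13.8 CPM, were low there, while Smad7 stood at 213 CPM. Bmp4 at 14.1 CPM, Grem1 at 29.4 CPM and Bambi at 36.9 CPM completed the 10, with Bmp6 at 157 CPM. Adult cells that passed both the CAR and osteolineage gates had 1274 CPM of Id3, 64.4 CPM of Id1, 480 CPM of Bmp6 and 230.3 CPM of Bambi. They also had 69.6 CPM of Id2, 160.5 CPM of Id4, 102 CPM of Smad6, 117 CPM of Smad7 and 217 CPM of Grem1. Old plasma cell-like cells, with no adult counterpart, ran from 0.695 CPM for Id2 to 60.3 CPM for Bmp6, with Id3 at 15.9 CPM. Over the 10 genes, erythroid-like cells ran from 0.361 CPM for Bambi to 40.1 CPM for Bmp6 in old and from 4.33 CPM for Id2 to 146 CPM for Id3 in adult cells.

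The genes most like each member, Id1 apart, were found by Pearson correlation of log2(CPM + 10) over 15 points, each a class in 1 library with at least 100 cells, among 7202 genes; the points share libraries and depth, so this is a description. Bmp6 was nearest to Cxcl12 (0.96), Fmo2 and Hpse2, and Bmp4 to Dpep1 (0.98), Pdzrn4 and Ism1. Cxcl12 is a CAR marker used in gating, so its high level at the CAR-like points was in part set by the gate. Grem1 was nearest to Shroom3 (0.99), Rspo2 and Dpep1. Bambi was nearest to Fkbp7 (0.89), Gal and Tmtc2, Smad6 to Adamts9 (0.97), Gulp1 and Tmem47, and Smad7 to Szrd1 (0.97), Erc1 and Alg14. Among the Id genes, Id2 was nearest to Acsl3 (0.92), Wnt5b and Myo1e, Id3 to Mmp14 (0.96), Hsd17b4 and Nectin3, and Id4 to Lpl (0.97), Fstl1 and Cnnm1. The 10 genes were not candidates in that search. Among themselves, the ligands and antagonist lay close together, Bmp4 with Bmp6 at 0.90 and Bmp4 with Grem1 at 0.95, and Id1 with Id2 at 0.87. Over the same 15 points Bmp4 stood at 0.76 with Id4, 0.40 with Id3, 0.07 with Id2 and -0.07 with Id1, and Bmp6 at 0.68, 0.33, 0.14 and 0.09 in that order. Smad7 was nearest to Id3 (0.89), then to Id1 and Id2 (0.81 each).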

How the data were processed

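Per the labels, stromal cells of each library were captured with the Chromium 3' kit v3.1; per the submitters' processing notes, reads were processed with Cell Ranger on GRCm39, and the file headers give version 7.0.1. The deposited values are UMI counts per gene and barcode, unnormalised; whether introns were counted and whether strand was used is not given in the sources used here. UMIs count transcript ends and were not divided by length.

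Barcodes with at least 500 genes and at most 10% mitochondrial UMIs were kept: 18975 of 22298 old and 22403 of 25635 adult barcodes, from 229917243 and 208637421 UMIs. A cell joined a class when its mean of log2(1 + UMIs per 10000) over a marker list passed that list's limit and no other; limits (2.5 for CAR and osteolineage, 1.5 for pericyte or smooth muscle, 1.25 for endothelial) were set after the score distributions were seen, and 986 old and 1441 adult cells lay within 0.25 of the CAR limit and 203 old and 597 adult cells within 0.25 of the osteolineage limit. Cells passing 2 or more gates were left out, in place of a doublet caller, except those passing the CAR and osteolineage gates, kept as a class of their own. Levels are summed UMIs of a gene per 1000000 UMIs of the class (CPM) with 95% exact Poisson intervals, shares have 95% Clopper-Pearson intervals, and ratios have conditional exact binomial intervals; all cover counting error only. Shares were also computed after thinning cells to 2000 UMIs, which left out 725 old and 606 adult CAR-like cells. No test was run, as each age has 1 library.

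The 10 genes and all lists were chosen with earlier results of these data known. The 10 genes are described in classes of at least 100 cells, some by range and not each in every blood class; of each pathway list, named genes are those 2-fold apart in a class and up to 4 of the most abundant in CAR-like cells. The calculation was tested on simulated counts. Python 3.11.15, NumPy 2.4.6, SciPy 1.17.1, pandas 2.3.3, and scanpy 1.11.5 for Leiden clusters, were used. Alternatives in gating, filters, scaling, free RNA and immediate early gene range were tried. The genes most like Id1 are not reported here.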

Additional observations from a re-analysis of the deposited data

Results flagged for a closer look

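Smad6, Smad7 and Id1 had ratios of old over adult on opposite sides of 0 in endothelial-like and CAR-like cells, each past 2-fold in 1 of these classes and with counting intervals that leave out 0; every library is single, and the difference between classes was not tested. The log2 ratio in endothelial-like cells exceeded that in CAR-like cells by 1.87 for Smad6 (1.23 and -0.64), by 1.28 for Smad7 (1.05 and -0.22) and by 2.28 for Id1 (0.59 and -1.69). Within arterial endothelial-like cells the ratios were 1.23 for Smad6, 0.43 for Smad7 and -0.18 for Id1, so Id1 there was on the same side of 0 as in CAR-like cells. Id2 also had ratios on opposite sides of 0 (0.06 in endothelial-like and -2.55 in CAR-like cells), but the counting interval of the endothelial-like one, -0.22 to 0.32, includes 0, so it was not taken with these 3.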

How the results depend on the processing

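In CAR-like cells the count of 4 genes 2-fold or more apart held under 12 of 13 alternatives, and was 3 with free RNA subtracted. Id1, Id2 and Id3 stayed 2-fold or more lower under each of the 12 alternatives run on their ratios, with ranges of -1.72 to -1.62, -2.67 to -2.39 and -1.92 to -1.82. In osteolineage-like cells the count of 3 became 5 with Leiden clusters, 6 with each cell weighted alike and 5 with thinned cells, all lower in old. In endothelial-like cells the count of 5 became 1 with Leiden clusters, Bambi alone, while the count of 4 for the pericyte or smooth muscle class became 2 in the shared range of immediate early genes, where 4 genes were counted. Bmp6 in pericyte or smooth muscle-like cells had a ratio of -1.01, which was 0.057 with each cell weighted alike and 0.41 in cells with a CAR marker score below 1. In osteolineage-like cells Id1 (-0.55) was 0.14 with a stricter gate and Bmp6 (-0.58) was 0.09 in the shared range. Without depth matching, the Id sum with over without a Bmp4 UMI was 0.41 in old CAR-like cells, and with over without a Bmp6 UMI -0.32 in adult ones. Of 209 recomputed ratios of the 16 that were 2-fold apart, 190 stayed 2-fold apart. The causes were not tested. The alternatives on shared barcodes, the cells of most UMIs, the CAR marker score and arterial cells were chosen after seeing the data. No paired analysis was possible because each age has 1 library. Endothelial-like and pericyte or smooth muscle-like old cells number 316 and 173, which limits genes under about 20 CPM there.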
